A study of Mus musculus with 12 samples.

Results

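The 10 genes described here, En1, En2, Pax3, Pax5, Pax7, Gata2, Gata3, Tal1, Foxa2 and Lmx1b, encode transcription factors that pattern the midbrain and the isthmus, the boundary between midbrain and hindbrain. They were taken by name: every probe that the scanner files label with one of these symbols was followed on all 12 arrays, which gave 14 of the 55681 non-control probes. A gene was tested where, in at least 1 culture group, the scanner software marked a probe as well above background on both arrays. That left 8 of the 10 genes, among 25536 genes tested in all, and En1 and Pax5 were not tested.

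Single-colour Agilent arrays measured RNA of neurons made from male mouse embryonic stem cells of 129/Ola background, collected at day 16 of differentiation, in 4 culture groups of 2 arrays. All 4 groups began at day 0 in the WNT inhibitor 53AH (2.5 µM) and the BMP inhibitor LDN193189 (0.25 µM), so that no group was free of them. In WiBi_0-11 the inhibitors stopped at day 11, and in WiBi_0-16 they stayed to day 16. CHIR_8-16 changed at day 8 from the inhibitors to the WNT agonist CHIR, a blocker of the kinase GSK3, at 3 µM until day 16. By the durations in the growth protocol this change falls 1 day earlier than the label gives. CHIR_11-16 made the same change at day 11, with no agonist concentration in its labels. The labels call WiBi_0-11 the isocortical and CHIR_8-16 the hippocampal protocol. The other 4 arrays held tissue of E15 Sv129s6 embryos of mixed sex, namely midbrain, cortex, hippocampus and ventral telencephalon, 1 array a tissue. Each RNA sample was pooled from 3 sets of experiments. Nothing says that the 2 replicates of a group came from separate pools, so each p-value reflects no more than array-to-array spread. The comparison asked whether the WNT agonist made the cultures more caudal.

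In the neural tube, anterior identity needs low WNT signalling, and WNT ligands from more posterior tissue move progenitors toward midbrain and hindbrain fates. The isthmus keeps Wnt1 and Fgf8 active side by side, and En1, En2 and Pax5 are switched on around it. Pax3 and Pax7 mark the dorsal neural tube and the tectum, Gata2, Gata3 and Tal1 act in sequence in GABAergic neurons of the midbrain, Foxa2 defines the floor plate, and Lmx1b acts at the isthmus and in dopaminergic and serotonergic neurons.

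Values are log2 signals of a probe relative to the 75th percentile of its array, so that 0 is that percentile and 1 unit is 1 doubling. They compare 1 probe across arrays, never 1 gene with another. Between 59.1% and 71.2% of spots were well above background per array. The lowest such signal lay between -6.58 and -4.91, and probes below this level carry no order. The arrays of replicate 1 were on slide 2, those of replicate 2 on slide 3, and the tissues on slide 1. Each culture slide held all 4 groups, so slide could be a block in the culture comparisons. Tissue and slide cannot be told apart. Within a group, arrays of the same slide deviated together (correlation 0.578 to 0.667 over 6 pairs of groups), and 6182 genes were higher and 2598 lower on slide 3 than on slide 2.

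The labelled E15 midbrain carried its patterning factors far above the telencephalic tissues. For 8 of the 10 genes the midbrain signal was at least 2-fold above each of the other 3 tissues, as it was for 845 of 28176 genes (3%). For 7 of them it was at least 10-fold above, as it was for 67 genes (0.238%). These genes were listed as midbrain factors, so the count is a check of the tissue label, not a result about it. Each tissue had 1 array and these differences have no replicate check. The same array had 10 of 12 listed hindbrain genes well above background, against 2 or 3 in the other tissues. In such bulk RNA, fewer cells of a type and less RNA per cell cannot be told apart.

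**Figure D1:**
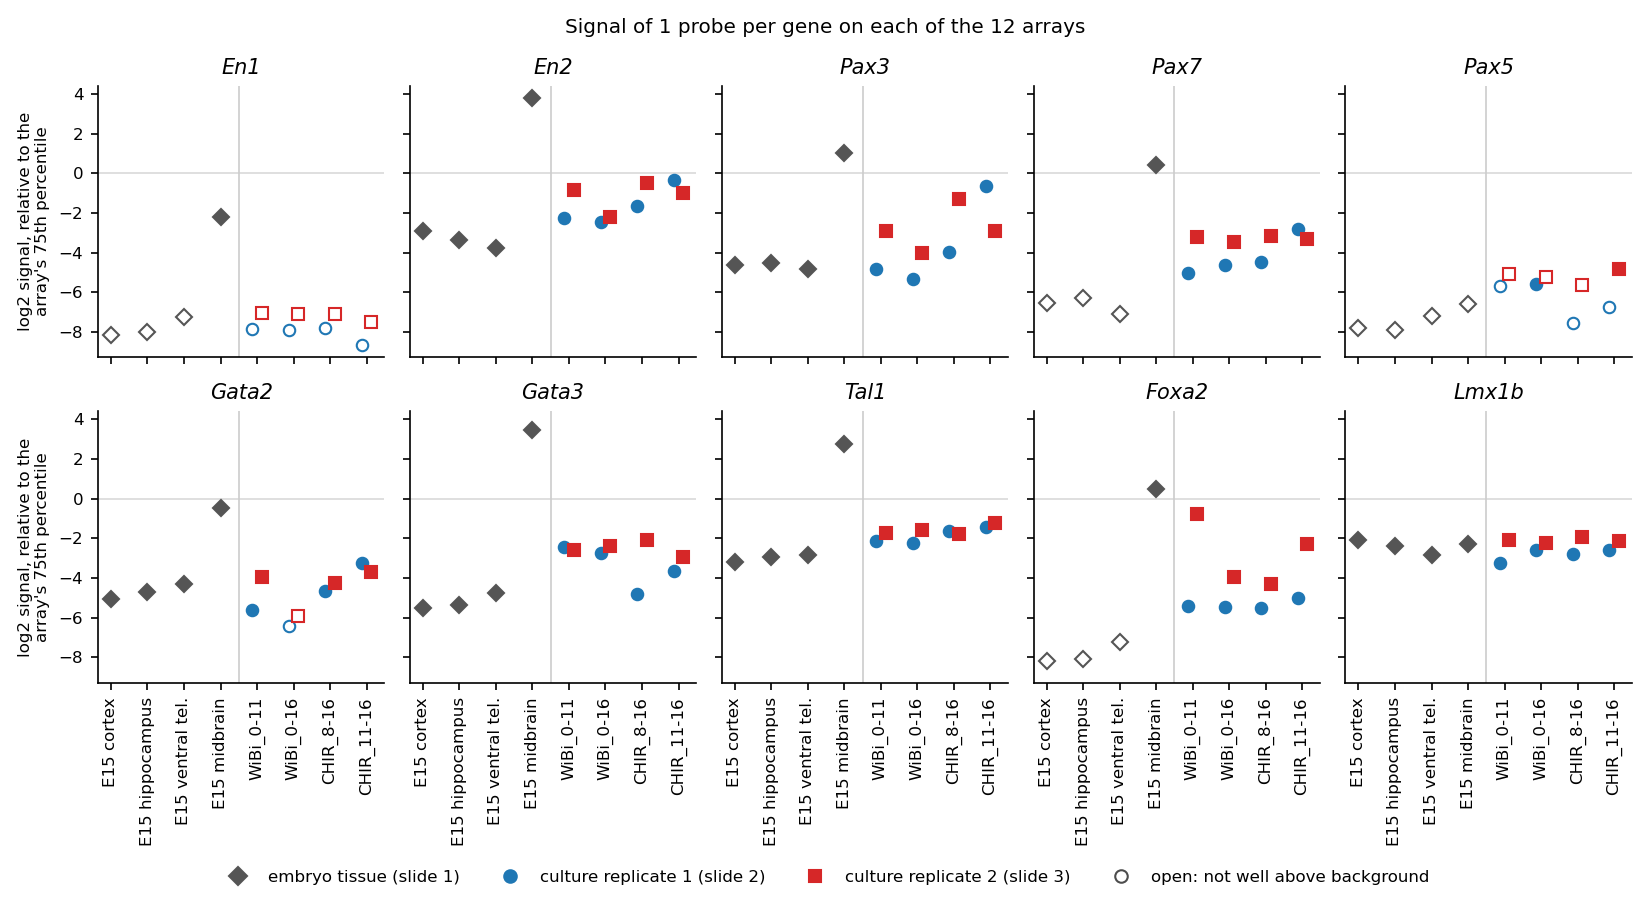
Log2 signal, relative to the 75th percentile of the array, of 1 probe for each of the 10 genes on the 12 arrays. Diamonds are embryo tissues, circles and squares are culture replicates 1 and 2, and open symbols are not well above background. For 8 of the 10 genes, all but Pax5 and Lmx1b, the midbrain diamond stands far above the other tissues, and every culture symbol of En1 is open.

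En1, a homeobox gene required for midbrain and cerebellum, had 1 probe in 10 spots (mm9 chr1:122504067-122504126). It measured -2.23 in E15 midbrain and was not well above background in cortex, hippocampus or ventral telencephalon. It was not well above background on any of the 8 culture arrays, where it read between -8.64 and -7.05. Midbrain was at least 7.35-fold above the other tissues and at least 6.40-fold above the highest culture. Agonist cultures read -7.75 ± 0.67 (SD, n = 4) and inhibitor-only cultures -7.46 ± 0.45 (SD, n = 4), with no order since all 8 lie below background. No En1 signal was detectable in either condition.

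Pax5, which helps to set up the isthmus and is also the B cell factor, was near background throughout. Its 2 probes were each well above background on only 2 of 12 arrays. Probe A_51_P122855 read -4.85 in CHIR_11-16 replicate 2 and -5.58 in WiBi_0-16 replicate 1, and was not above background in E15 midbrain. Probe A_55_P2126394 read -5.89 in E15 midbrain and -5.80 in WiBi_0-16 replicate 1. The agonist and inhibitor-only cultures each had at most 1 array above background with either probe, so Pax5 gave no comparison.

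En2, the partner of En1 with a later role in the tectum and cerebellum, was the opposite case. Its probe, in 10 spots (mm9 chr5:28498468-28498528), was well above background on all 12 arrays. E15 midbrain stood at 3.77, and cortex, hippocampus and ventral telencephalon at -2.92, -3.38 and -3.78. The cultures lay between these levels, at -2.27 and -0.84 in WiBi_0-11, -2.48 and -2.22 in WiBi_0-16, -1.65 and -0.48 in CHIR_8-16, and -0.32 and -1.0 in CHIR_11-16. The highest culture was 17.1-fold below midbrain. The agonist arrays were above both WiBi_0-16 arrays but overlapped WiBi_0-11, whose replicate 2 was high. Agonist cultures averaged -0.86 ± 0.60 and inhibitor-only cultures -1.95 ± 0.75 (SD, n = 4 each), a difference of 1.09 (SE 0.426, 95% interval 0.11 to 2.07) with an adjusted p of 0.267 in limma. With slide as a block the adjusted p was 0.157, and the difference was 1.39 within slide 2 and 0.79 within slide 3. The difference was positive in each of the 24 alternatives tried, from 0.76 to 1.46.

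Pax3, a paired-box gene of the dorsal neural tube, showed the largest agonist difference of the members. Its tested probe (mm9 chr1:78099294-78099353) read 1.01 in E15 midbrain and -4.62, -4.54 and -4.82 in cortex, hippocampus and ventral telencephalon. It read -4.81 and -2.93 in WiBi_0-11, -5.35 and -4.02 in WiBi_0-16, -3.96 and -1.30 in CHIR_8-16, and -0.62 and -2.90 in CHIR_11-16. The highest arrays of the 8 were thus CHIR_11-16 replicate 1 and CHIR_8-16 replicate 2, and the replicates of a group lay up to several doublings apart. Agonist cultures averaged -2.19 ± 1.51 and inhibitor-only cultures -4.28 ± 1.05 (SD, n = 4 each). The difference was 2.09 (SE 0.802, 95% interval 0.24 to 3.93), and it missed the threshold (limma adjusted p = 0.258, while blocking on slide gave 0.163). Within slide 2 it was 2.79 and within slide 3 it was 1.38. With normexp background correction it was 1.29, and the alternatives tried gave 1.28 to 2.67.

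The second Pax3 probe (mm9 chr1:78099476-78099535, in 10 spots) was dimmer and was not tested. It was well above background on only 2 culture arrays, at -2.30 in CHIR_11-16 replicate 1 and -3.91 in CHIR_8-16 replicate 2, and in E15 midbrain at -0.25. These are the culture arrays on which the tested probe was highest. Spots of the same probe on an array differed by an SD of 0.04 to 0.59 for Pax3, 0.08 to 0.31 for En2 and 0.06 to 0.61 for En1.

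Pax7, the paralogue of Pax3 that persists in the tectum (mm9 chr4:139294364-139294423), was not well above background in the 3 telencephalic tissues and stood at 0.42 in E15 midbrain, at least 45.9-fold higher. All 8 cultures were above background, with -5.02 and -3.22 in WiBi_0-11, -4.60 and -3.48 in WiBi_0-16, -4.47 and -3.18 in CHIR_8-16, and -2.82 and -3.31 in CHIR_11-16. Apart from CHIR_11-16, replicate 2 was the higher array of each pair, and the sides overlapped. The agonist difference was 0.64 (SE 0.493, 95% interval -0.50 to 1.77, limma adjusted p = 0.676), with 1.16 within slide 2, 0.11 within slide 3 and 0.30 with normexp. Neural crest and muscle precursors also use Pax3 and Pax7. The summed neural crest and mesenchyme markers were 0.534 to 1.03 times the 75th percentile in agonist and 0.529 to 0.865 in inhibitor-only cultures, with 4 of 5 detected on every culture array and Foxd3 on none. The muscle markers summed to 0.084 to 0.164 and 0.063 to 0.089, with Myf5 and Myog detected in no culture. Of the 4 crest and mesenchyme markers tested, 2 were higher and 2 lower in agonist cultures, with a median difference of 0.03. Tfap2a, a crest marker, rose by 1.65 with slide as a block (limma adjusted p = 0.0461), and by 1.09 under the scaling that gave the least. The call was lost when any 1 array was left out. Myh3 was not well above background in WiBi_0-11 replicate 2 and WiBi_0-16 replicate 2. It entered the test only through the agonist groups, so its call with the block supports nothing, and its difference was between 0.54 and 1.90 over the scalings. Their part in the Pax3 and Pax7 values was not tested.

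Gata2 starts the GABAergic programme of midbrain progenitors. Its probe (mm9 chr6:88156362-88156421) read -0.45 in E15 midbrain and -5.07, -4.72 and -4.29 in cortex, hippocampus and ventral telencephalon. It read -5.62 and -3.96 in WiBi_0-11, -4.65 and -4.27 in CHIR_8-16, and -3.23 and -3.71 in CHIR_11-16. Both WiBi_0-16 arrays, at -6.43 and -5.90, were not well above background. Gata2 was thus detected in 6 of 8 cultures, and it was the member whose detection itself followed the groups. Agonist cultures averaged -3.96 ± 0.62 and inhibitor-only cultures -5.48 ± 1.06 (SD, n = 4 each). The difference of 1.51 (SE 0.541, 95% interval 0.27 to 2.76) had an adjusted p of 0.225 in limma, and the slide block gave 0.146. It was 2.08 within slide 2 and 0.95 within slide 3. The size depended on how background was handled: it was 0.44 with normexp and 0.94 in the authors' deposited table.

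Gata3, which follows Gata2 in the same neurons, was not higher in the agonist cultures. Its probe (mm9 chr2:9779551-9779610) read 3.44 in E15 midbrain, 295-fold above the next tissue, and -5.53, -5.35 and -4.77 in cortex, hippocampus and ventral telencephalon. The inhibitor-only cultures were tight, at -2.44 and -2.60 in WiBi_0-11 and -2.73 and -2.40 in WiBi_0-16. The agonist cultures were spread, at -4.80 and -2.09 in CHIR_8-16 and -3.64 and -2.96 in CHIR_11-16. The agonist difference of -0.83 (SE 0.508, 95% interval -2.0 to 0.34) missed the threshold (limma adjusted p = 0.534). CHIR_8-16 replicate 1 carried much of it: without that array the difference was -0.35, without CHIR_8-16 replicate 2 it was -1.26, with normexp it was -0.45, and within slide 3 it was -0.03. Gad1, an enzyme that makes GABA and a marker of ventral telencephalon here, fell with slide as a block in CHIR_8-16 against WiBi_0-11, by 2.68 (limma adjusted p = 0.209, and 0.0486 with the block). That call was kept in 1 of the 8 fits that left out an array. The summed ventral telencephalon markers were 11.4 to 35.0 times the 75th percentile in agonist and 29.9 to 34.9 in inhibitor-only cultures, and their part in the Gata3 values was not tested.

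Tal1, a cofactor in the same neurons that is also a blood factor, varied least among the GABAergic trio. It read 2.75 in E15 midbrain and -3.20, -2.95 and -2.81 in cortex, hippocampus and ventral telencephalon (mm9 chr4:114744219-114744278). The cultures read -2.12 and -1.72 in WiBi_0-11, -2.24 and -1.59 in WiBi_0-16, -1.64 and -1.79 in CHIR_8-16, and -1.44 and -1.24 in CHIR_11-16. Both CHIR_11-16 arrays were above the other 6 cultures. The agonist difference was 0.39 (SE 0.193, 95% interval -0.06 to 0.83, limma adjusted p = 0.406). Of 6 listed blood markers, Gata1, Hbb-b1 and Alas2 were not well above background in any culture, whereas Hbb-b1 stood between 3.62 and 4.07 in the 4 tissues. The summed signal of the list was 0.174 to 0.340 times the 75th percentile in agonist cultures, 0.156 to 0.472 in inhibitor-only cultures and 188 to 265 in the tissues. Klf1, of the same list, was not well above background in WiBi_0-11 replicate 2 and WiBi_0-16 replicate 2 and entered the test only through the agonist groups. Its call with the block therefore supports nothing, and its difference was between 0.25 and 0.90 over the scalings.

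Promoter sequences were looked up for all members. RefSeq annotation on GRCm38.p6 gave 12 promoters of 8 of the genes, the 250 bases before each start site, with none for En2 and Pax3. They were searched on both strands for the TCF/LEF core CTTTGA, through which WNT signalling reaches DNA. The GATA motif AGATAA was searched in the same way. So was the E-box of the TAL1 type, CAGATG. Only 1 of the 12 held CTTTGA, and it is shown because it is also 1 of the 2 that held AGATAA. It is a Tal1 promoter (GRCm38.p6 chr4:115056176-115056425, plus strand), in capitals the reverse-strand GATA motif from -205 running into the TCF/LEF core from -201, which share bases.
Tal1: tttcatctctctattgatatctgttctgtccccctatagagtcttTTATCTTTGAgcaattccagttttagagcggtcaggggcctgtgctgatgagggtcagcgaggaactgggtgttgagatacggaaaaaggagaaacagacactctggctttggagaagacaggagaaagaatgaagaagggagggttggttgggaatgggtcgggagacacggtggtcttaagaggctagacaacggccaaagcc
The other promoter with the GATA motif is 1 of 3 of Foxa2 (GRCm38.p6 chr2:148045465-148045714, minus strand), with the motif from -183 in capitals.
Foxa2: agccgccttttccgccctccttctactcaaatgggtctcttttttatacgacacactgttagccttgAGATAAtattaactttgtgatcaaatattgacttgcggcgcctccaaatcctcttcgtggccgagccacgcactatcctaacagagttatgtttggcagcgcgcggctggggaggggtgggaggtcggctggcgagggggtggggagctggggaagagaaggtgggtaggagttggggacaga
Among all 32851 promoters of the same length, 13.8% held CTTTGA, 9.99% held AGATAA and 14.4% held CAGATG, which none of the 12 held. A match here is a run of letters and not a measured binding site.

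Foxa2, the floor plate factor that also marks dopaminergic progenitors and endoderm, had the widest spread between replicates. Its tested probe (mm9 chr2:147868669-147868728) was not well above background in the telencephalic tissues and read 0.48 in E15 midbrain, at least 47.9-fold higher. The replicate 1 cultures were alike, at -5.39 in WiBi_0-11, -5.47 in WiBi_0-16, -5.52 in CHIR_8-16 and -4.99 in CHIR_11-16. Their replicate 2 counterparts read -0.77, -3.94, -4.29 and -2.29. Replicate 2 was the higher array in each group, with the groups of replicate 2 spread from -4.29 to -0.77. Slide 3 was 2.52 higher than slide 2 (limma adjusted p = 0.025), a call that 6182 of 25536 genes had in this direction. The agonist difference was -0.38 (SE 1.13, 95% interval -2.99 to 2.23, adjusted p = 0.970), with 0.18 within slide 2 and -0.94 within slide 3.

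The second Foxa2 probe (mm9 chr2:147868614-147868673), which was too dim to be tested, was above background in E15 midbrain at -1.72 and on only 2 culture arrays, WiBi_0-11 replicate 2 at -3.12 and CHIR_11-16 replicate 2 at -4.91. These are the arrays on which the tested probe was highest. The endoderm marker Sox17 was well above background on the same 2 culture arrays, at -3.70 and -4.90, and on no other culture. On those 2 arrays the endoderm markers Gata6, Ttr and Foxa3 were not well above background. Among the cultures, Gata6 and Foxa3 were above it in CHIR_11-16 replicate 1 alone. Afp and Hnf4a were not well above background in any culture, and Gata4 was so in every culture. Of the 7 listed endoderm markers 2 to 4 were detected in agonist and 1 or 2 in inhibitor-only cultures, and their summed signal was 0.081 to 0.686 and 0.086 to 0.228 times the 75th percentile. Their part in the Foxa2 values was not tested.

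Lmx1b, a LIM homeobox factor, was, beside Pax5, the member that did not stand out in E15 midbrain. Its tested probe (mm9 chr2:33495011-33495070) read -2.26 in midbrain and -2.08, -2.41 and -2.85 in cortex, hippocampus and ventral telencephalon. The cultures read between -3.24 and -1.91, and the second passing probe (mm9 chr2:33420253-33420312) between -3.74 and -2.74 in cultures and at -3.72 in midbrain. No tissue or culture group stood apart with either probe. The agonist difference was 0.18 (SE 0.30, 95% interval -0.51 to 0.87, limma adjusted p = 0.922). Slide 3 was 0.72 higher than slide 2 (limma adjusted p = 0.026), as it was called for 6182 of 25536 genes.

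**Figure D2:**
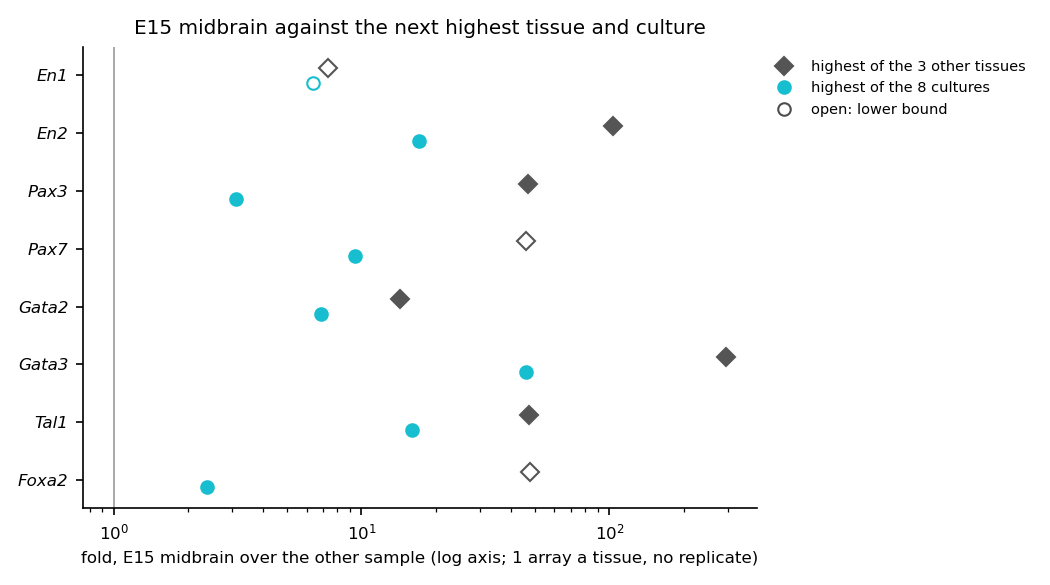
Fold of the E15 midbrain signal over the highest of the other 3 tissues (diamonds) and over the highest of the 8 cultures (circles), on a log axis, for the 8 members that stood out in midbrain; open symbols are lower bounds. The culture folds run from 2.37 for Foxa2 to 46.0 for Gata3 and each is drawn below the tissue fold of its gene.

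No culture reached the midbrain level of any of these 8 genes. The midbrain signal was at least 2-fold above every culture array for all 8, as for 1593 of 26929 genes (5.92%), and Foxa2 in WiBi_0-11 replicate 2 came nearest.

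Across the 4 agonist and 4 inhibitor-only cultures, 0 of the 8 tested members passed the adjusted threshold in limma. In this fit 2 of all 25536 genes passed (0.00783%), and with slide as a block 869 did (3.4%), again with 0 of the 8 members. At an unadjusted p under 0.05 the members counted 3, or 4 with the block, where 15.3% and 22.5% of all genes did. The member differences were positive for 6 and negative for 2, with a median of 0.51, and 12779 of all genes (50.0%) were higher, with a median of 0.00045. For all 8 members the agonist and inhibitor-only arrays overlapped, whereas 6.72% of all genes were higher and 5.57% lower without overlap. The intervals leave room for sizeable differences: the upper bounds reached 2.07 for En2, 2.23 for Foxa2, 2.76 for Gata2 and 3.93 for Pax3, and the lower bounds -2.99 for Foxa2 and -2.0 for Gata3. No member passed in any of 169 fits over 25 settings and all comparisons, and the smallest adjusted p was 0.0765, for Gata3.

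**Figure D3:**
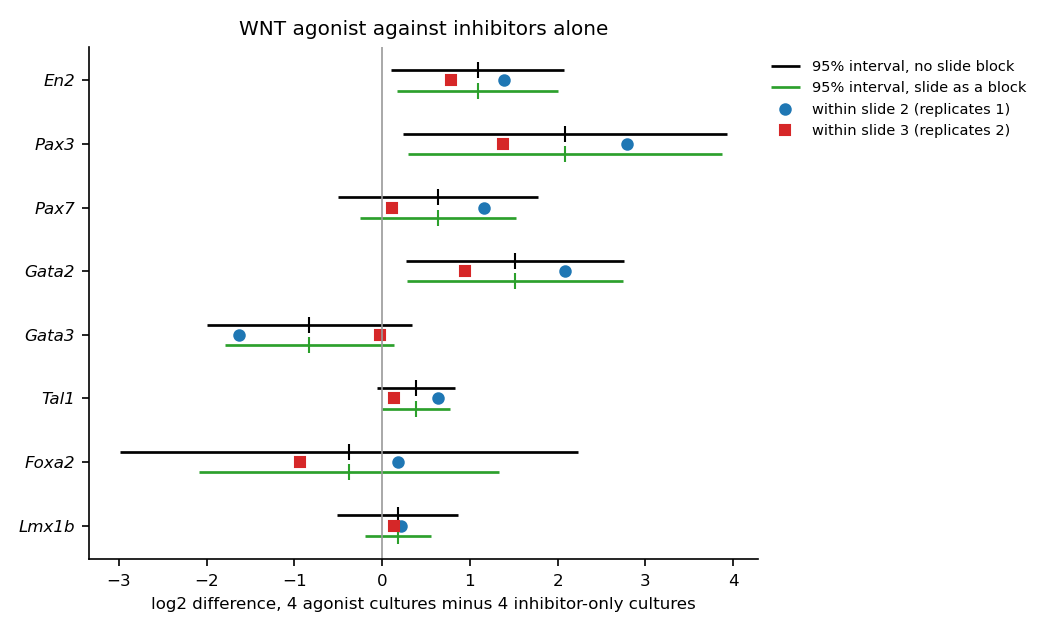
Log2 difference between the 4 agonist and the 4 inhibitor-only cultures for the 8 tested members, with 95% intervals without (black) and with (green) slide as a block. Circles and squares are the differences within slide 2 and within slide 3. En2, Pax3, Pax7, Gata2, Tal1 and Lmx1b lie above 0 on both slides, Gata3 lies below 0 on both, and Foxa2 differs in sign between them. Agreement of sign between the slides was not counted over all genes.

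The comparisons by protocol share control arrays, so their values are given side by side and are not independent. Those against WiBi_0-16 were added after the members' values had been seen. CHIR_11-16 exceeded WiBi_0-16 by 2.70 for Gata2 (SE 0.559, limma adjusted p = 0.326, and 0.0973 with the block), at least 4.18-fold since WiBi_0-16 was not above background. It exceeded WiBi_0-16 by 2.93 for Pax3 (SE 1.24, adjusted p = 0.517) and by 1.69 for En2 (SE 0.602, adjusted p = 0.445). The Pax3 difference was 4.73 within slide 2 and 1.13 within slide 3, and with the block it was 0.81 without CHIR_11-16 replicate 1 and 5.05 without its replicate 2. En2 ran from 0.87 to 2.51 over the alternatives. For 6 of the 8 members the 2 arrays of each group did not overlap, with En2, Pax3, Pax7, Gata2 and Tal1 higher and Gata3 lower in CHIR_11-16. Of all genes, 21.1% were higher and 18.3% lower without overlap in the same comparison, and 0 passed the threshold with or without the block, while 2 members and 10.1% of all genes had an unadjusted p under 0.05, or 4 and 22.4% with the block. Normexp reduced the Gata2 difference to 0.93.

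CHIR_8-16 exceeded WiBi_0-16 by 1.71 for Gata2 (at least 2.11-fold, limma adjusted p = 0.301), by 2.06 for Pax3 (adjusted p = 0.606) and by 1.28 for En2 (adjusted p = 0.470). Over the alternatives Pax3 ran from 0.73 to 3.38 and En2 from 0.70 to 1.87. These 3 members did not overlap between the groups, where 18.3% of all genes were higher and 16.5% lower without overlap. No member passed, and 4 of all genes did (0.0157%), or 315 with slide as a block (1.23%). An unadjusted p under 0.05 was reached by 1 member, where 12.6% of all genes did, or 24.6% with the block. The Gata2 difference was 0.37 with normexp and 0.95 in the authors' deposited table.

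Against WiBi_0-11, which had the same inhibitor exposure as CHIR_11-16, the differences of En2, Pax3 and Gata2 were smaller for both agonist groups than against WiBi_0-16, and those of the other members were not uniformly so. The change between controls was not tested. CHIR_11-16 read 0.89 higher for En2, 2.11 for Pax3, 1.32 for Gata2 and 0.57 for Tal1, and the Gata3 difference was -0.78. With normexp the Gata2 difference was 0.51. The smallest adjusted p of any member was 0.379, reached with slide as a block. Pax3, Gata2 and Tal1 lay above and Gata3 below WiBi_0-11 without overlap, among 17.9% and 16.9% of all genes, and 0 genes passed in limma, or 4 with the block (0.0157%). An unadjusted p under 0.05 was reached by 0 members and 4.73% of all genes in limma, and by 2 members and 12.4% with the block. For Pax3 the difference was 4.19 within slide 2 and 0.03 within slide 3. CHIR_8-16 differed from WiBi_0-11 by 0.49 for En2, 1.24 for Pax3 and 0.33 for Gata2, all 8 members overlapped (17.9% of all genes were higher and 17.6% lower without overlap), and 3 genes passed (0.0117%), or 77 with the block (0.302%). An unadjusted p under 0.05 was reached by 0 members, and by 9.59% of all genes (22.1% with the block). The Gata2 difference turned to -0.05 with normexp and to -0.08 in the authors' deposited table.

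No member passed between the inhibitor-only groups. Gata2 differed by -1.37 between WiBi_0-16 and WiBi_0-11 (limma adjusted p above 0.99 for every member), which puts WiBi_0-11 at least 1.67-fold higher without overlap, where 16.1% of all genes were lower without overlap. With normexp the Gata2 difference was -0.43. En2 differed by -0.79 and Pax3 by -0.82, with overlap. Between the agonist groups, CHIR_8-16 was lower than CHIR_11-16 for 7 of 8 members, with differences of -0.99 for Gata2 and -0.37 for Tal1 that did not overlap, among 14.5% of all genes. In these comparisons 0 genes passed without the block, with 0 members and 2.61% and 3.82% of genes at an unadjusted p under 0.05. With the block it was 1 member, Gata2, and 10.8% of genes between the inhibitor-only groups, and 0 members and 11.7% between the agonist groups. With it 3 (0.0117%) and 2 (0.00783%) of all genes passed.

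**Figure D4:**
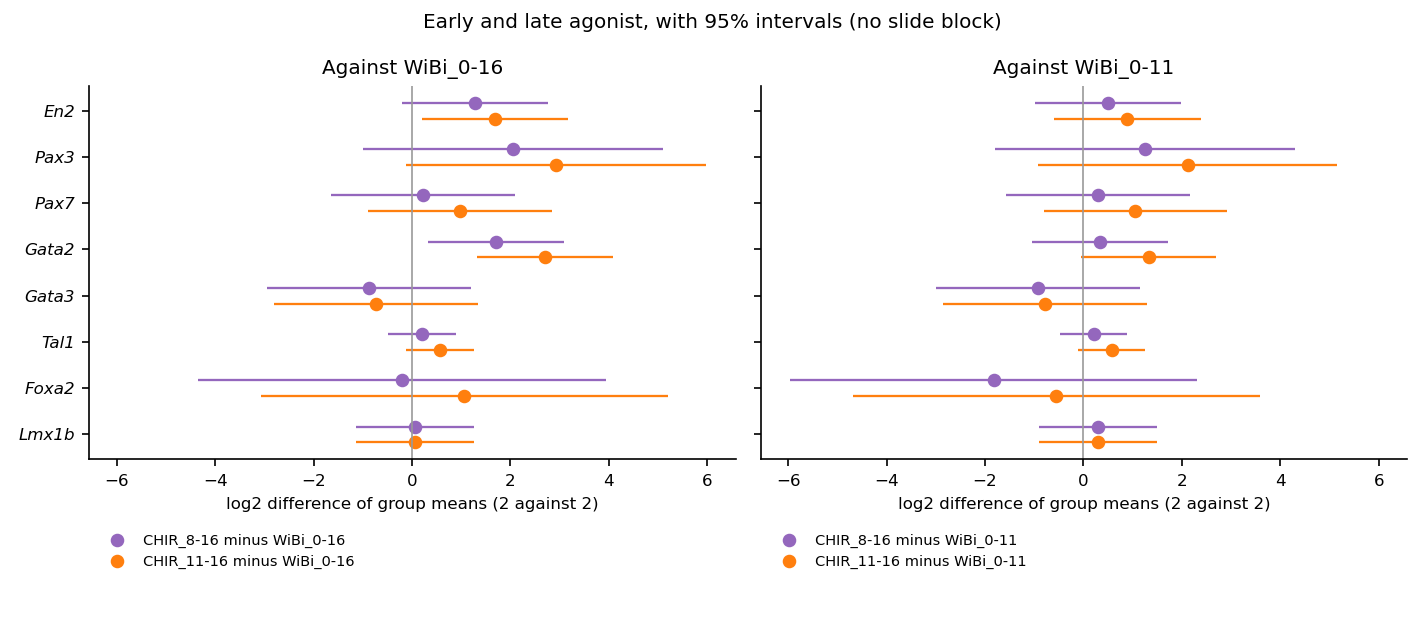
Log2 differences of CHIR_8-16 and CHIR_11-16 from WiBi_0-16 (left) and from WiBi_0-11 (right) for the 8 tested members, with 95% intervals from the fit without a slide block (2 arrays a group). Gata2 has the highest lower bound, at 1.32 for CHIR_11-16 against WiBi_0-16, and the intervals against WiBi_0-11 all include 0. Gata2 was not well above background in WiBi_0-16, so its bounds there rest on background readings, and with normexp that difference was 0.93.

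Other genes of the region were read from a list of 36. Of these, 33 were tested, 17 higher and 16 lower in agonist cultures, with a median of 0.03, and 0 passed in limma. With slide as a block 4 passed: Lhx5, Spry2 and Etv5 fell, and Gbx2 was higher but had entered the test only through the agonist groups. Each of these 4 calls was lost when any 1 of the 8 culture arrays was left out.

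Gbx2, which sets the hindbrain side of the isthmus, read -4.63 and -5.46 in WiBi_0-11, -5.41 and -5.26 in WiBi_0-16, -2.74 and -0.89 in CHIR_8-16, and -2.68 and -3.47 in CHIR_11-16. It was well above background on all 4 agonist arrays, and was not in replicate 2 of either inhibitor-only group. Since no inhibitor-only group could have brought it into the test, its call with the block is given as a description only. The difference in measured means was 1.36 to 2.83 over the scalings, and those below background have only a bound. E15 midbrain stood at -1.55 and ventral telencephalon at -0.40. Otx2, its counterpart on the midbrain side and also a forebrain gene, differed by 2.18 (adjusted p = 0.177, and 0.0853 with the block).

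Etv5 and Spry2, both induced by FGF signalling, differed by -1.09 and -0.54 (block-adjusted p of 0.0488 and 0.0497, against 0.115 and 0.0999 in limma without it). Fgf8 itself differed by 0.16 (adjusted p = 0.965). Lhx5, a LIM factor of forebrain and midbrain, differed by -1.01 (adjusted p = 0.0333 with the block). Ddc, an enzyme of dopamine and serotonin synthesis, fell with the block in CHIR_8-16 against WiBi_0-11, by 1.94 (adjusted p = 0.607 without and 0.0200 with it), a call kept in 2 of the 8 fits that left out 1 array, and its difference was between -2.15 and -1.09 over the scalings.

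The other isthmus and dopaminergic genes did not pass in the agonist comparison. Wnt1 differed by -0.29 and Pax2 by -0.14. Foxa1, the relative of Foxa2, differed by 1.62, Tal2, the relative of Tal1, by 2.04, and Lmx1a, the relative of Lmx1b, by 0.51. Nr4a2 and Th, which mark dopaminergic neurons, differed by -0.13 and -0.09, and Tfap2d by -0.76. Their adjusted p in limma ran from 0.330 for Tal2 to 0.978 for Pax2, and with the block none was under 0.15. Pou4f1 differed by 1.42 (limma adjusted p = 0.161, and 0.0989 with the block) and Sox14 by 0.54. Of 5 listed midbrain markers other than the members, 4 were higher and 1, Tfap2d, was lower in agonist cultures. Their median difference was 0.54, and none passed with or without the block. On the scale of the other marker sums, theirs was 2.22 to 6.19 in agonist and 1.68 to 2.31 in inhibitor-only cultures. These ranges overlapped.

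Hindbrain genes were mostly dark in the cultures. Of 12 listed, 4 were tested and 0 passed in limma without the block. Hoxb4 was called higher with the block, but it entered the test only through CHIR_11-16, so the call supports nothing. Among the cultures its probe was above background only in CHIR_11-16, at -5.12 and -4.12, which bounds the agonist over the inhibitor-only cultures at 1.23-fold or more. The difference in measured means was 0.53 to 2.60 over the scalings. CHIR_11-16 replicate 2 had 8 of the 12 genes above background and the other 7 cultures had 2 to 4.

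Telencephalic genes were detected in every culture. Of 7 listed, 6 or 7 were above background on each culture array and Otx1 alone was called with slide as a block. E15 midbrain also had 6 of the 7 above background, so this count does not set the cultures apart from midbrain. Tbr1 read 4.34 to 5.28 in the cultures and -1.68 in midbrain, and Emx1 -0.72 to 1.35 and -4.45. Six3 went the other way, at -2.46 to -0.79 in the cultures and 1.27 in midbrain, and the Otx1 cultures lay on both sides of midbrain. Otx1 was not well above background in WiBi_0-11 replicate 2 and both WiBi_0-16 arrays, and it entered the test only through the agonist groups, so its calls support nothing. CHIR_8-16 was at least 5.73-fold and CHIR_11-16 at least 2.65-fold above WiBi_0-16. The agonist difference in measured means was 0.78 to 2.01 over the scalings. The call of CHIR_8-16 against WiBi_0-16, which was made without the block too (adjusted p = 0.0418), was kept with the block in 1 of 8 fits that left out an array, and its difference was 1.15 to 2.95 over the scalings. Emx2 differed by -0.05 (adjusted p = 0.979). Of the WNT targets, Sp5 rose by 4.2, Lef1 by 2.09 and Nkd1 by 1.95 with the block (adjusted p of 0.0398, 0.0482 and 0.0368), and Axin2 differed by 0.95 (adjusted p = 0.0804 with the block). Without the block their adjusted p were 0.0821, 0.129, 0.0602 and 0.174, and the 3 calls were lost when any 1 array was left out. Notum, of the same list, differed by -0.52 (limma adjusted p = 0.542, and 0.284 with the block). Tcf7 was well above background on the 4 agonist arrays and on no inhibitor-only array. It thus entered the test only through the agonist groups, which were at least 2.64-fold higher.

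**Figure D5:**
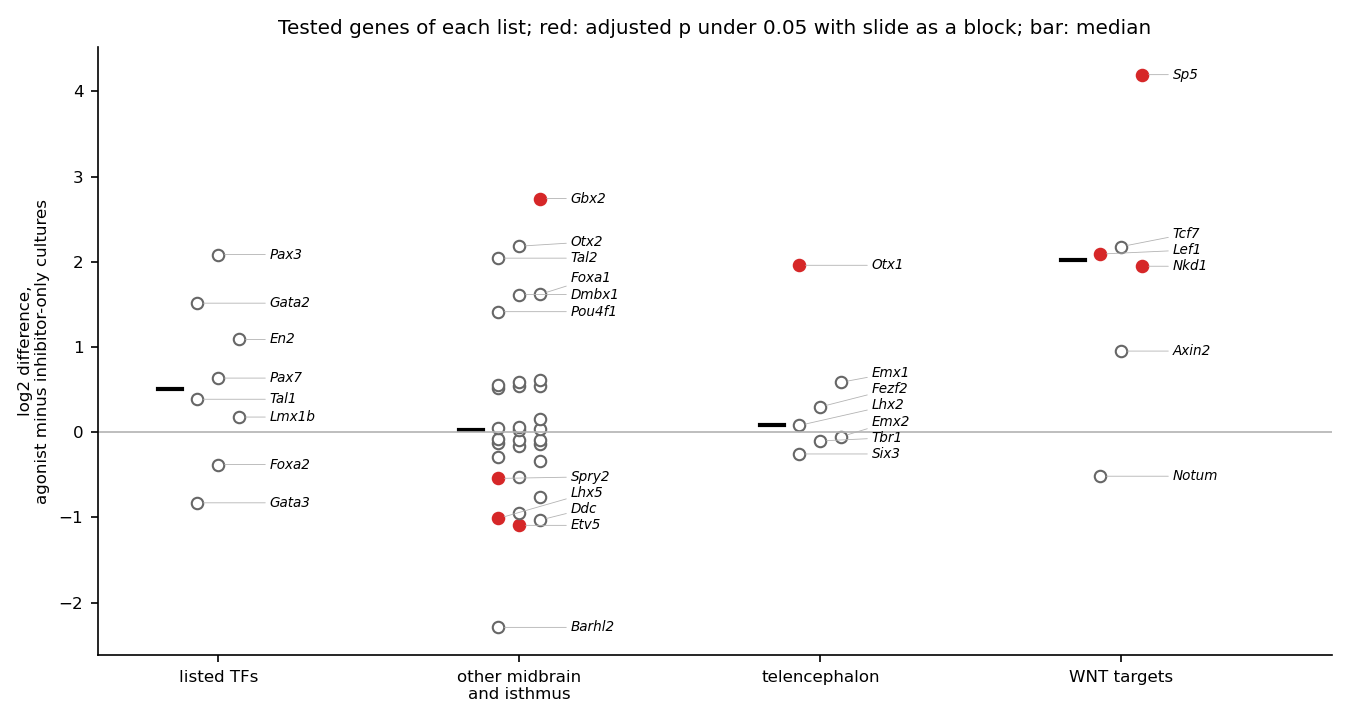
Log2 difference between agonist and inhibitor-only cultures for each tested gene of 4 lists; red points had an adjusted p under 0.05 with slide as a block and the short bars are medians. Of the red points, Gbx2 and Otx1 entered the test only through the agonist groups, and no red point lies among the 8 tested transcription factors. The WNT targets have the highest median, 2.02, which counts Tcf7, a gene that also entered only through the agonist groups.

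Pairs of members were compared by correlation. Over all 12 arrays, which include the midbrain array that is high for 7 of the 8, the 28 pairs of tested members correlated at a median of 0.81 (range 0.17 to 0.95). Over the 8 cultures the median was 0.52 (range -0.32 to 0.95). En2 and Pax3 correlated most, at 0.95 over the cultures, En2 and Gata2 at 0.94, and Gata3 and Tal1 least, at -0.32. These arrays share slides and scaling, so the values are descriptions. By Pearson correlation over the 12 arrays, the genes nearest to En2 were Pax7 (0.95), Tal1 (0.95) and Gchfr (0.94), those nearest to Pax3 were Dmbx1 (0.93), Dbx1 (0.93) and En2 (0.92), and those nearest to Gata2 were Pltp (0.92), Perp (0.90) and Lhpp (0.89). Foxa2 was nearest to Esrrb (0.95), Nr5a2 (0.93) and Nhlrc4 (0.92), and Gata3 to Irx6 (0.95). Over the 8 cultures alone some stayed near these values, with 0.89 for Pax3 with Dmbx1, 0.95 for Gata2 with Perp and 0.85 for Foxa2 with Esrrb. Others were lower, with 0.82 for En2 with Pax7, 0.61 for En2 with Tal1 and 0.71 for Gata3 with Irx6.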

How the data were processed

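The 12 single-colour arrays were read as the scanner intensity that Agilent Feature Extraction wrote after its own background correction, per the file headers, which name version 10.7.3.1, whereas the submitters' processing notes name 9.1 and limma. The authors' deposited table holds log2 values of the same arrays, used as an alternative. Here each processed intensity was taken to log2 and set against its array's 75th percentile, controls left out. Outlier spots were dropped and spots of a probe averaged. Probes marked well above background on both arrays of some culture group were kept (36427 of 55681), and the brightest kept probe stood for a gene. Group means over the 8 culture arrays were fitted with limma 3.58.1 in R 4.3.3, with Benjamini-Hochberg adjustment at 0.05 over 25536 genes. The fit was also run on simulated data with the same noise for every gene. That does not match the spread of these arrays, and no result here rests on it. Replicate numbers coincide with slides, which pair the arrays, so slide as a block was an alternative. "At least" folds set the brighter mean against the lowest signal well above background. The number of arrays limits the precision. All members, the called genes of each list and a few fixed list genes are named, except some that are not reported here. Nearest patterns are the 3 highest Pearson correlations over 12 arrays. The members and lists were chosen with earlier results of these data known.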

Additional observations from a re-analysis of the deposited data

Results flagged for a closer look

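En2 in WiBi_0-11 replicate 2, at -0.84, stood apart from the other 3 inhibitor-only cultures, which lay between -2.48 and -2.22. Its gap to the nearest of them was 0.843 of the range of the 4 arrays, above Dixon's 95% critical value. It was the only such sample in 20 groups of 4 examined, and chance gives about 1 in 20 such groups.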

How the results depend on the processing

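With 2 arrays a group, leaving out 1 leaves a lone array assumed to vary like the other groups. Of 1296 alternative values of the 56 member differences, 1200 kept their sign and 96 turned it, 81 of these on leaving out an array, and 0 became or ceased to be a call. No sign of En2, Pax3, Gata2, Gata3, Tal1 or Pax7 turned in the agonist comparison under the alternatives run. Scaling to the median instead of the 75th percentile shifted the median of all genes by -0.16 (CHIR_8-16 against CHIR_11-16) to 0.13 (CHIR_11-16 against WiBi_0-16). The causes of the changes below were not tested.

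Slide as a replicate block, the paired fit, gave 869 calls over all genes in the agonist comparison, 77 in CHIR_8-16 against WiBi_0-11, 4 in CHIR_11-16 against WiBi_0-11, 3 in WiBi_0-16 against WiBi_0-11, 2 in CHIR_8-16 against CHIR_11-16 and 315 in CHIR_8-16 against WiBi_0-16, and it changed no call of a member. The 869 were 505 higher and 364 lower, against 0 and 2 without the block. In the agonist comparison median scaling gave 15 calls (11 higher, 4 lower), normexp 8 (4 higher, 4 lower), the contrast of 4 group means 1, and quantile normalization and no filter 0. In CHIR_8-16 against WiBi_0-11 median scaling gave 5, quantile 11, and no filter and the mean of probes 0. In CHIR_11-16 against WiBi_0-11 median scaling gave 2 and quantile 3, in WiBi_0-16 against WiBi_0-11 quantile gave 3, and in CHIR_8-16 against CHIR_11-16 both gave 1. In CHIR_8-16 against WiBi_0-16 normexp gave 20 (12 higher, 8 lower), the deposited values 2, median scaling 1 and no filter 0. In CHIR_11-16 against WiBi_0-16 normexp gave 1.

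These differences turned sign. Gata2 in CHIR_8-16 against WiBi_0-11 was -0.054 with normexp and -0.082 in the deposited table. In WiBi_0-16 against WiBi_0-11, Pax7 was -0.026 with median scaling and -0.048 with quantile, Gata3 was 0.026 with normexp and 0.037 in the deposited table, and Tal1 was -0.097, -0.049, -0.018 and -0.031 with median scaling, quantile, normexp and the deposited table. Lmx1b in CHIR_8-16 against CHIR_11-16 was -0.15, -0.11, -0.066 and -0.10 in the same order, and -0.027 in CHIR_11-16 against WiBi_0-16 with the mean of its probes.

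Leaving out each array, with and without the block, gave 0 to 3 calls over all genes in the agonist comparison, 0 to 110 in CHIR_8-16 against WiBi_0-11 (110 with the block without CHIR_8-16 replicate 1), 0 to 4 in CHIR_11-16 against WiBi_0-11, 0 to 1 in WiBi_0-16 against WiBi_0-11, 0 to 4 in CHIR_8-16 against CHIR_11-16, 0 to 326 in CHIR_8-16 against WiBi_0-16 and 0 to 1 in CHIR_11-16 against WiBi_0-16. The member differences whose sign turned ranged as follows. Agonist against inhibitor-only gave Foxa2 -1.04 to 0.66 and Lmx1b -0.058 to 0.34. For CHIR_8-16 against WiBi_0-11, the ranges were En2 -0.23 to 1.21, Pax3 -0.084 to 2.57, Pax7 -0.60 to 1.20, Gata2 -0.49 to 1.16, Gata3 -2.28 to 0.43, Tal1 -0.077 to 0.49, Foxa2 -4.13 to 0.49 and Lmx1b -0.29 to 0.89. CHIR_11-16 against WiBi_0-11 gave Pax3 -0.0020 to 4.23, Foxa2 -2.87 to 1.75 and Lmx1b -0.30 to 0.88. For WiBi_0-16 against WiBi_0-11, the ranges were Pax3 -1.76 to 0.13, Pax7 -0.83 to 0.97, Gata3 -0.74 to 0.65, Tal1 -0.32 to 0.33, Foxa2 -3.93 to 0.69 and Lmx1b -0.35 to 0.83. CHIR_8-16 against CHIR_11-16 gave En2 -1.22 to 0.42, Pax3 -2.99 to 1.24, Pax7 -1.70 to 0.19, Gata3 -1.50 to 1.21, Foxa2 -2.62 to 0.087 and Lmx1b -0.43 to 0.44. For CHIR_8-16 against WiBi_0-16, the ranges were Pax7 -0.42 to 0.87, Gata3 -2.23 to 0.48, Tal1 -0.12 to 0.53, Foxa2 -1.07 to 0.66 and Lmx1b -0.37 to 0.50. CHIR_11-16 against WiBi_0-16 gave Foxa2 -0.29 to 2.42 and Lmx1b -0.20 to 0.31.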
